A study of Mus musculus with 15 samples.

Results

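The genes described are 8 of the 55335 genes in the table, chosen by symbol as the IL-10 and IL-12 cytokine and receptor axis: Il10, Il10ra, Il10rb, Il12a, Il12b, Il12rb1, Il12rb2 and Il23a. Their levels were measured by RNA-seq in TAMs (tumor-associated macrophages) sorted by FACS from tumors in the liver of C57BL/6 mice. The tumors were orthotopic HCC grown from Hepa1-6 cells, a mouse hepatoma line, and all of the groups received cells carrying a lentiviral luciferase. The 3 groups were TAMs of control HCC, of HCC with miR-144 overexpression and of HCC with miR-451a overexpression, with 5 samples each and 15 in all. The overexpression was in the HCC cells and not in the TAMs, and the labels describe every sample as untreated. The labels give neither the age or sex of the mice, nor the tumor that each sample came from, nor whether a sample was 1 mouse or a pool. The paper's figure legend gives n = 3 for the TAM RNA-seq, and how this relates to the 5 samples per group is not stated. The p-values and SDs therefore measure the spread between these samples. The members were selected on earlier results of the same FPKM values, so their differences between groups are a description and carry no test here.

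IL-10 is a cytokine that restrains inflammation. It binds a receptor of IL10RA and IL10RB chains, whose kinases JAK1 and TYK2 activate STAT3, and macrophages both make it and respond to it. IL-12 joins the p35 chain (Il12a) to the p40 chain (Il12b), and IL-23 joins p19 (Il23a) to the same p40. Both are products of activated macrophages and dendritic cells and act on lymphocytes, IL-12 through IL12RB1 and IL12RB2 with JAK2, TYK2 and STAT4, and IL-23 through IL12RB1 and IL23R. In macrophage biology IL-12 is used as a sign of the M1-like state and IL-10 of the M2-like state, and the study asked whether the miRNAs in HCC cells move TAMs between these states.

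The miRNAs that define the groups are shown from RefSeq (GRCm38.p6), 5′ to 3′, with the seed (bases 2 to 8) in capitals. The labels name no arm of miR-144, so both are given. All are encoded on the plus strand of chromosome 11, miR-144-5p at 78073010 to 78073032, miR-144-3p at 78073047 to 78073066 and miR-451a at 78073186 to 78073207.
mmu-miR-144-3p: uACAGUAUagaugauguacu
mmu-miR-144-5p: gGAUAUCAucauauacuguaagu
mmu-miR-451a: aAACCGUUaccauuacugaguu
None of the 8 genes holds a match to the miR-144-3p seed (ATACTGT) or to the miR-451a seed (AACGGTT) in its longest annotated 3′ UTR, read on the transcript strand. For Il10rb that UTR has 2478 bases, more than the 1850 of its only coding transcript. It thus belongs to a transcript of another type, and the UTR of the coding transcript was not searched on its own. Of 21173 genes with such a UTR, 12.3% hold the first and 1.95% the second. The miR-144-5p seed (TGATATC) has 1 match, in Il12rb2, and 6.59% of genes hold it. These counts describe letters only, and neither miRNA was placed in the TAMs by the design. The genes Mir144 and Mir451a themselves are listed at 0 FPKM in all 15 samples, a value that does not measure the mature miRNAs.

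The study measured IL-10 and IL-12 in macrophages by quantitative RT-PCR with the primers below, shown because the name IL-12 does not say which chain was amplified. They are written 5′ to 3′ and were matched here to the GENCODE M21 transcripts.
mIL-10-F: ccctttgctatggtgtcctt
mIL-10-R: tggtttctcttcccaagacc
mIL-12-F: ggaagcacggcagcagaata
mIL-12-R: aacttgagggagaagtaggaatgg
Each primer matched the transcripts of 1 gene. The IL-10 pair lies in Il10 and bounds 97 bases of the 3′ UTR in exon 5 (chromosome 1, 131024645 to 131024741, plus strand, GRCm38). The IL-12 pair lies in Il12b, the p40 chain that IL-12 and IL-23 share, and bounds 180 coding bases across exons 5 and 6 (chromosome 11, 44410288 to 44411068, plus strand). The gene of the RNA-seq table that corresponds to the IL-12 primers is thus Il12b. From quantitative RT-PCR of sorted TAMs, the paper reports more M1-type and less M2-type cytokine production with either miRNA. Its text does not name those cytokines. In the RNA-seq values given below, Il10 was higher with both miRNAs and Il12b was listed at 0 in all samples. How the RNA-seq and the RT-PCR relate was not tested.

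Of the ligands, Il10 was higher in the TAMs of both miRNA groups, and the 3 genes of IL-12 and IL-23 were listed at or near 0 in all groups. Il10 (ENSMUSG00000016529, chromosome 1, 131019845 to 131024974, plus strand) encodes IL-10 itself. Its FPKM (fragments per kilobase, scaled to the mapped fragments of the library) in control samples 1 to 5 was 0.602, 0.911, 0.829, 0.660 and 0.651. In miR-144 samples 1 to 5 it was 3.99, 4.41, 3.88, 3.41 and 4.66, and in miR-451a samples 1 to 5 it was 3.79, 3.84, 4.03, 3.78 and 4.19. No sample with either miRNA came as low as the highest control sample, while the miR-144 and miR-451a groups overlapped and the miR-451a samples fell within the miR-144 range. Il10 averaged 0.731 ± 0.132 FPKM in the control group, 4.07 ± 0.487 in the miR-144 group and 3.93 ± 0.179 in the miR-451a group (SD, n = 5 each). These are ratios of means of 5.57 and 5.37 to control. On the scale used for the fits, log2(FPKM + 1), the difference from control was 1.55 (SE 0.067) with miR-144 and 1.51 (SE 0.067) with miR-451a, which is smaller than the ratio of FPKM because 1 is added to low values.

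Il12b (ENSMUSG00000004296, chromosome 11, 44400063 to 44414033, plus strand), the p40 chain, was listed at 0 FPKM in all 15 samples. Il12a (ENSMUSG00000027776, chromosome 3, 68690644 to 68698547, plus strand), the p35 chain, was above 0 in 5 samples of the 3 groups. These were control 3 at 0.0437 FPKM, miR-144 samples 3 and 5 at 0.0132 and 0.0294, and miR-451a samples 2 and 3 at 0.0201 and 0.0276. Il23a (ENSMUSG00000025383, chromosome 10, 128296139 to 128298752, minus strand), the p19 chain of IL-23, was above 0 in 3 samples. They were miR-144 sample 4 at 0.0199 FPKM and miR-451a samples 2 and 5 at 0.0208 and 0.0436, with all control samples listed at 0. Every value of Il12a and Il23a lay under the 0.148 and 0.142 FPKM that 3 fragments would give in the shallowest sample, as estimated from the spacing of low values, and no difference between groups was detectable at this depth. A ratio of Il10 to Il12b was not formed, since Il12b was listed at 0 throughout.

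**Figure D1:**
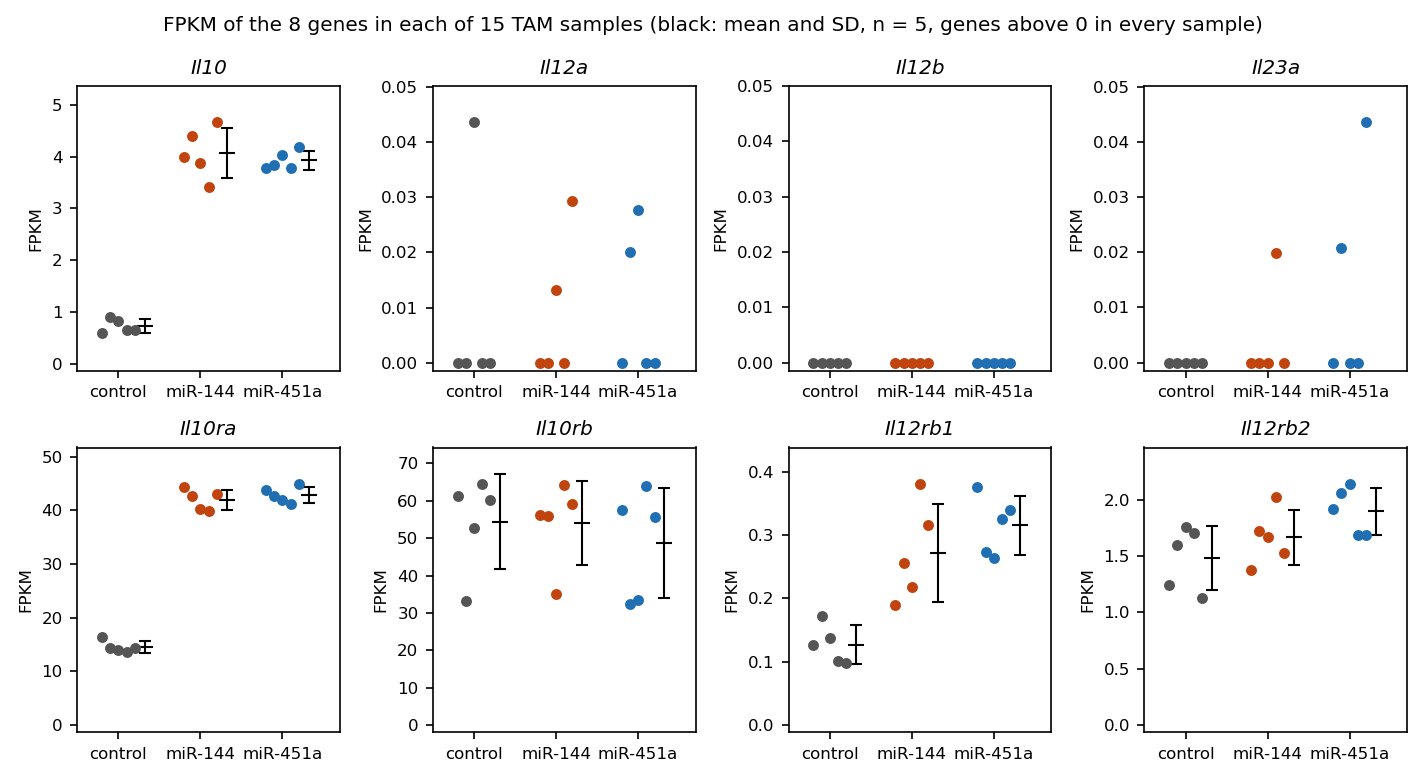
FPKM of each of the 8 genes (vertical axes, a scale of its own for each gene) in the 5 control, 5 miR-144 and 5 miR-451a samples, 1 point per sample in the order 1 to 5 and, for genes above 0 in every sample, the mean and SD in black. Il10 runs from 0.602 to 0.911 FPKM in control samples and from 3.41 to 4.66 in the others, Il10ra from 13.7 to 16.5 and from 39.9 to 45.0, while Il10rb has samples near 33 and near 60 in all groups and Il12b has no sample above 0.

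Of the receptor chains, Il10ra was higher in both miRNA groups, Il10rb showed no such difference, and both IL-12 receptor chains had low levels. Il10ra (ENSMUSG00000032089, chromosome 9, 45253837 to 45269149, minus strand) encodes the chain that binds IL-10 and engages JAK1. In control samples 1 to 5 its FPKM was 16.5, 14.3, 14.1, 13.7 and 14.4. It was 44.3, 42.6, 40.2, 39.9 and 43.0 in miR-144 samples 1 to 5, and 43.8, 42.6, 42.0, 41.2 and 45.0 in miR-451a samples 1 to 5. No control sample came near the other groups, and the miRNA groups overlapped. The means were 14.6 ± 1.10 (SD, n = 5), 42.0 ± 1.87 (SD, n = 5) and 42.9 ± 1.48 (SD, n = 5) FPKM, or 2.87 and 2.94 times control. The log2 difference from control was 1.46 (SE 0.045) with miR-144 and 1.49 (SE 0.045) with miR-451a. The closeness of these to the log2 differences of Il10 comes from the 1 added to low values: with a pseudocount of 0.1 FPKM they were 1.52 and 1.55 for Il10ra and 2.33 and 2.29 for Il10.

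Il10rb (ENSMUSG00000022969, chromosome 16, 91406164 to 91425834, plus strand) encodes the second chain, which engages TYK2 and also serves receptors of IL-22 and type III interferon. Its FPKM in control samples 1 to 5 was 61.4, 33.3, 52.7, 64.6 and 60.3. With miR-144 it was 56.3, 55.8, 35.0, 64.1 and 59.1, and with miR-451a 57.5, 32.4, 33.5, 64.1 and 55.8. The groups overlapped fully, and in each of them 1 or 2 samples lay between 32.4 and 35.0 FPKM while the rest lay between 52.7 and 64.6. The means were 54.5 ± 12.6 (SD, n = 5), 54.1 ± 11.2 (SD, n = 5) and 48.7 ± 14.7 (SD, n = 5) FPKM. The log2 difference from control was -0.0017 with miR-144 (95% interval -0.51 to 0.50) and -0.18 with miR-451a (95% interval -0.68 to 0.33), so that a change of up to about 0.5 in either direction lies within the first interval. Il10rb shares 13.6% of its 50-base stretches with Gm21970, an overlapping gene on the same strand that is above 0 in 2 samples and reaches 1.31 FPKM, so its value depends on how fragments of the shared exons were assigned. Whether that has a part in the low samples was not tested.

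Il12rb1 (ENSMUSG00000000791, chromosome 8, 70808449 to 70821424, plus strand) encodes the chain that IL-12 and IL-23 receptors have in common. In control samples 1 to 5 it was at 0.127, 0.172, 0.137, 0.101 and 0.0973 FPKM. It was at 0.189, 0.256, 0.218, 0.381 and 0.316 FPKM in miR-144 samples 1 to 5 and at 0.376, 0.274, 0.264, 0.325 and 0.339 in miR-451a samples 1 to 5. Neither miRNA group overlapped the control group, but the lowest miR-144 sample exceeded the highest control sample by less than the SD of either group. The means were 0.127 ± 0.030 (SD, n = 5), 0.272 ± 0.077 (SD, n = 5) and 0.316 ± 0.047 (SD, n = 5) FPKM, 2.14 and 2.49 times control. On the log2(FPKM + 1) scale the differences were 0.17 and 0.22 (SE 0.039 for each). These are small because 1 is added to values far below 1, and they were 0.70 and 0.88 with a pseudocount of 0.1 FPKM and 0.45 and 0.57 with TPM. These levels stand for few fragments, and 3 fragments would give up to 0.0672 FPKM on the longest annotated coding transcript and up to 0.265 on the shortest.

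Il12rb2 (ENSMUSG00000018341, chromosome 6, 67291318 to 67376188, minus strand) encodes the chain that is particular to the IL-12 receptor and carries its STAT4 docking sites. Its FPKM was 1.24, 1.60, 1.76, 1.71 and 1.13 in control samples 1 to 5. It was 1.38, 1.73, 1.67, 2.02 and 1.52 with miR-144 and 1.92, 2.06, 2.14, 1.69 and 1.69 with miR-451a. All 3 groups overlapped. The means were 1.49 ± 0.284 (SD, n = 5), 1.66 ± 0.243 (SD, n = 5) and 1.90 ± 0.209 (SD, n = 5) FPKM, with log2 differences from control of 0.10 (95% interval -0.081 to 0.29) and 0.23 (95% interval 0.042 to 0.41). The last exons of Il12rb2 overlap those of Serbp1 on the opposite strand, which was at 5.31 to 6.76 FPKM, and 38% of the 50-base stretches of Il12rb2 occur in Serbp1 transcripts read in reverse. The sources used here do not say whether strand was used in counting, and without it the fragments of both genes in that stretch cannot be told apart.

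In levels per length, Il10rb and Il10ra stood far above the other members in every group. In control TAMs the order of the mean FPKM was Il10rb (54.5), Il10ra (14.6), Il12rb2 (1.49), Il10 (0.731) and Il12rb1 (0.127), and no neighbours in this order overlapped in their sample ranges. In both miRNA groups Il10 stood above Il12rb2, again without overlap. The ranges of Il10ra and Il10rb overlapped there, as Il10ra at 39.9 to 45.0 FPKM lay between the low and the high Il10rb samples. Il12a, Il12b and Il23a came last, and their levels were too low to be ordered.

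The proportion of the IL-10 receptor chains differed between control and miRNA groups. The ratio of Il10rb to Il10ra in control samples had a median of 3.75 (range 2.32 to 4.72), against 1.31 (range 0.869 to 1.61) with miR-144 and 1.24 (range 0.761 to 1.56) with miR-451a. All control samples lay above all others, the low Il10rb sample control 2 included. For the IL-12 receptor, with 0.1 FPKM added to each chain, the ratio of Il12rb2 to Il12rb1 had a median of 6.23 (range 5.90 to 8.97) in control samples, 5.12 (range 3.90 to 5.56) with miR-144 and 4.24 (range 4.06 to 6.16) with miR-451a. The control and miR-451a ranges overlapped, but with 0.01 FPKM added they did not (8.82 to 15.4 and 4.85 to 7.85).

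**Figure D2:**
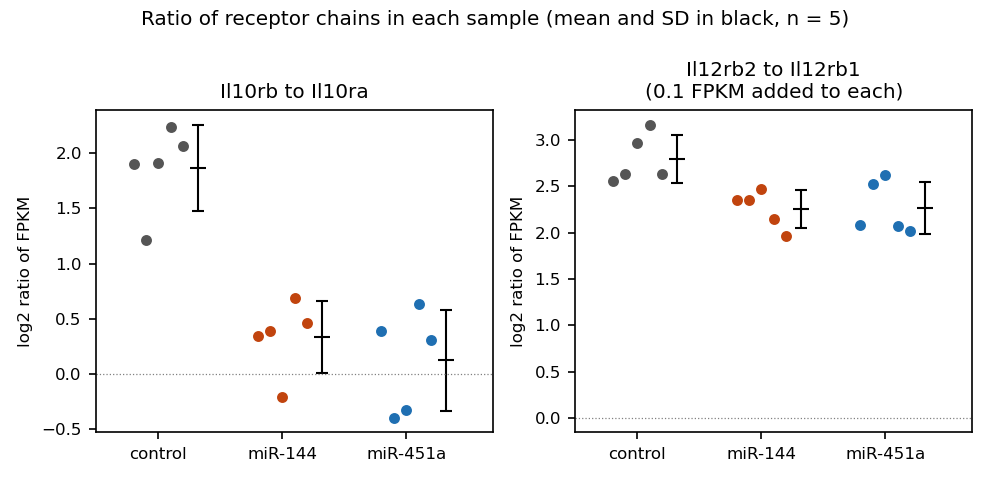
Log2 ratio of the FPKM of Il10rb to Il10ra (left) and of Il12rb2 to Il12rb1 (right, 0.1 FPKM added to each) in each sample of the 3 groups, with the mean and SD in black. The left panel falls from 1.86 ± 0.389 in control samples to 0.34 ± 0.328 with miR-144 and 0.12 ± 0.458 with miR-451a, without overlap with control, and the right panel from 2.80 ± 0.260 to 2.26 ± 0.204 and 2.27 ± 0.285, where miR-451a overlaps control.

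Across the 8 genes, 7 were above 0 in at least 1 sample and entered the limma fit, and Il12b did not. With miR-144 against control, 3 members (Il10, Il10ra and Il12rb1) had an adjusted p under 0.05 and were higher, where 23.1% of 29540 genes were, and 0 were lower, where 9.65% of genes were. The sample ranges of the same 3 members did not overlap those of control in that direction, as for 19% of genes. With miR-451a the same 3 were higher (24.5% of genes were higher and 9.69% lower), again without overlap (19.9% of genes). These shares are of all 29540 genes, many of them near 0. A fit limited to the 11419 genes averaging 1 FPKM or more kept 4 members. For miR-144 it called 5376 genes upward, including 2 members (Il10 and Il10ra). For miR-451a it called 5490 upward, including 3 members (Il10, Il10ra and Il12rb2). Since the members were chosen with these contrasts known, nothing is read from the counts. The comparisons with control share the same 5 control samples and are not independent of each other. The median difference of the genes averaging 1 FPKM or more was itself 0.13 and 0.14 on the log2 scale, upward in both miRNA groups. With FPKM scaled to equal medians, the differences with miR-144 and miR-451a were 1.47 and 1.42 for Il10, 1.32 and 1.34 for Il10ra, 0.15 and 0.20 for Il12rb1, 0.0079 and 0.12 for Il12rb2, and -0.15 and -0.34 for Il10rb. Il12rb2 with miR-144 turned its sign under quantile normalization (-0.05) and median centring (-0.03). When the median of log2(FPKM + 1) was subtracted instead, Il12rb1 differed by 0.04 and 0.08 and was no longer called, and Il12a and Il23a were called lower, because a constant taken from values at 0 makes them negative.

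**Figure D3:**
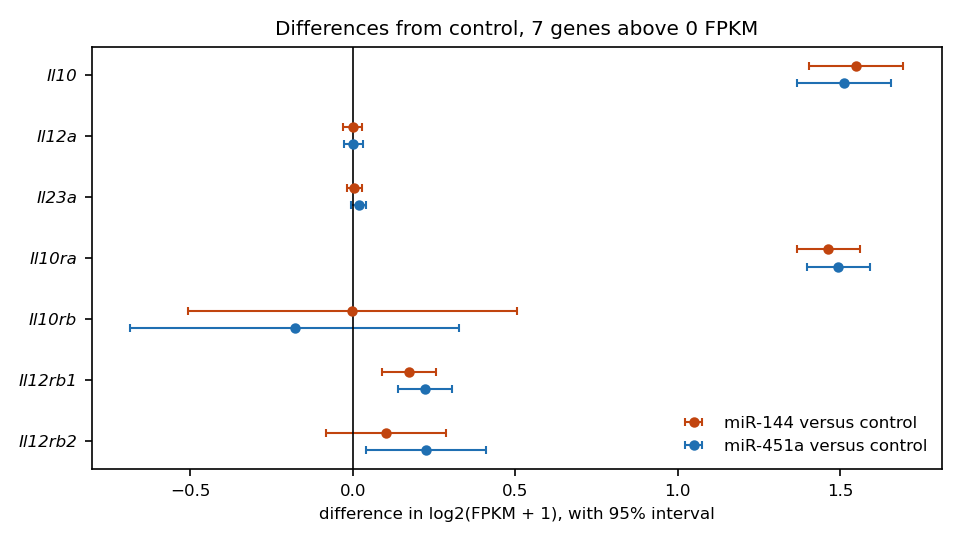
Difference in log2(FPKM + 1) from control (horizontal axis, with 95% intervals of the limma fit) for the 7 members above 0 FPKM, with miR-144 in red and miR-451a in blue. Il10 and Il10ra lie between 1.46 and 1.55, Il12rb1 at 0.17 and 0.22, and the intervals of Il12a, Il23a and Il10rb include 0, as does that of Il12rb2 with miR-144.

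Between the miRNA groups no member was called by limma (0 of 7, and 0 at an unadjusted p under 0.05), and 0% of all 29540 genes were, although 1459 had an unadjusted p under 0.05. The log2 difference of miR-451a from miR-144 was -0.037 for Il10 (95% interval -0.18 to 0.11) and 0.031 for Il10ra (95% interval -0.065 to 0.13). It was 0.050 for Il12rb1 (95% interval -0.034 to 0.13), 0.12 for Il12rb2 (95% interval -0.061 to 0.31) and -0.18 for Il10rb (95% interval -0.68 to 0.33). With a pseudocount of 0.1 FPKM the interval of Il10 widened to -0.27 to 0.18, and the interval of Il10rb is wide on either scale.

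In other measures of the same samples, the sorted cells carried macrophage genes at high levels, but not at the same level in all groups. The sort used antibodies against the products of Itgam and Adgre1, so expression of these genes follows from the sort itself. The FPKM of Adgre1, Itgam, Csf1r, Cd68, Lyz2, Mertk and Fcgr1 summed to 8694 to 9526 in control samples, 14689 to 16545 with miR-144 and 14383 to 15593 with miR-451a, without overlap with control and mostly through Lyz2 (means of 6894, 13170 and 12580). The symbol Itgam has 2 entries, and the sums include both. Fcgr1 averaged 18.01, 121.9 and 117.7 FPKM in the 3 groups and Adgre1 137.0, 361.0 and 354.3, while Cd68 went the other way, at 1444, 919.3 and 910.4. Cd3e, Cd3g and Trbc2 of T cells, Ncr1, Gzma and Eomes of NK cells, Clec4f of Kupffer cells and Alb, Apoa1 and Ttr of hepatocytes were listed at 0 in all samples. Of the 6 hepatocyte or hepatoma markers 1 was detected, Afp, at 0.0753 to 0.253 FPKM in all 15 samples. Depth was estimated at 15.5 to 30.3 M fragments per sample. The 7 T cell markers summed to at most 0.490 FPKM. The 6 NK cell markers summed to 0.192 to 0.416 FPKM in control samples and 0.0323 to 0.168 in the others, nearly all of it Klrb1c. Further lists differed between control and miRNA samples, each through 1 gene in the main. The 7 dendritic cell markers summed to 84.7 to 106 FPKM in control samples and 3.46 to 5.07 in the others through Itgax. The other 6 had means under 0.3 FPKM in each group, with Zbtb46 at 0.0955, 0.0516 and 0.0767, Xcr1 at 0.160, 0.249 and 0.258, Clec9a at 0.0885, 0.173 and 0.147, and Flt3, Cd209a and Ccr7 lower still. The 4 Kupffer cell markers summed to 3.30 to 3.75 FPKM in control samples and 15.7 to 49.9 in the others, nearly all of it Cd5l, and the 5 B cell markers to 0.138 to 0.379 and 1.11 to 1.75, mostly Cd79b. The 6 neutrophil markers summed to 12.7 to 18.5 and 3.40 to 6.53 FPKM, mostly Mmp8, with Retnlg at 0 and S100a9 at 0 in control samples and at means of 0.138 and 0.157 with the miRNAs, and the 5 endothelial markers to 45.6 to 50.4 and 10.7 to 13.5, through Vwf (means of 43.5, 7.10 and 6.94), while Kdr was at 2.80, 3.85 and 4.07 and Pecam1 under 1. The part of these markers in the differences of the members was not tested. In sorted bulk RNA, fewer cells that express a gene and less RNA of it per cell cannot be told apart.

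Genes that act with the 2 families were then compared by limma over all 29540 genes, from lists drawn up by known role but with earlier results of these data in view, so that their counts and p-values are not independent of those results. Of 55 such genes, 47 were above 0 in at least 1 sample. With miR-144, 23 were higher and 9 lower than in control at an adjusted p under 0.05, and with miR-451a 24 were higher and 10 lower (shares of all genes as above, many of them near 0). Among genes averaging 1 FPKM or more, 28 of 37 partner genes (75.7%) were called with miR-144 against 67.2% of 11419 genes, and 29 of 37 (78.4%) with miR-451a against 68.3%, so that most genes at such levels were called. Of the called genes, 30 of 32 and 32 of 34 kept their direction under all 4 other scalings, the exceptions being Jak1 and Rps6ka4 with miR-144 and Rps6ka4 and Il18r1 with miR-451a, and 26 of 32 and 25 of 34 stayed called under all 4. With FPKM scaled to equal medians the calls were 17 higher and 11 lower with miR-144 and 18 and 13 with miR-451a. Between the miRNA groups limma called 0 of 47, with 2 at an unadjusted p under 0.05.

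The other genes of the IL-12 family split into ligand chains that were higher and receptor chains that were lower. Ebi3, a p40-like chain of IL-27 and IL-35, rose from 7.42 ± 0.144 FPKM to 28.0 ± 2.38 with miR-144 and 30.4 ± 3.08 with miR-451a (SD, n = 5 each, log2 differences of 1.78 and 1.90, limma adjusted p = 3.53e-11 and 1.70e-11). Il27, the p28 chain of IL-27, rose from 0.476 ± 0.141 to 1.47 ± 0.235 and 1.47 ± 0.367 FPKM (SD, n = 5 each, limma adjusted p = 6.04e-05 and 6.70e-05). In the opposite direction, Il27ra, the specific chain of the IL-27 receptor, fell from 2.10 ± 0.344 to 0.222 ± 0.085 and 0.248 ± 0.075 FPKM (SD, n = 5 each, limma adjusted p = 4.36e-09 and 5.39e-09). Il6st, which encodes gp130, the chain that IL-27 and IL-6 receptors share, fell from 61.5 ± 10.5 to 17.0 ± 1.27 and 20.6 ± 5.37 FPKM (SD, n = 5 each, limma adjusted p = 2.49e-07 and 1.02e-06). In all 4 genes the control samples did not overlap those of either miRNA group. Il23r, the specific chain of the IL-23 receptor, was listed at 0 in all samples.

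Of 8 further ligands and receptors of the IL-10 family, Il20, Il22, Il24 and Il22ra2 were listed at 0 throughout and none had a mean of 1 FPKM. Of the 4 that were tested, 1 was called in each comparison with control, Il20rb, named after its values were seen, which fell from 0.655 ± 0.050 to 0.369 ± 0.126 and 0.333 ± 0.064 FPKM (SD, n = 5 each). Il19, a ligand of the family, reached 0.0822 FPKM in its highest sample.

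Among the 6 kinases and STATs of these receptors, 5 were higher and 1 lower with miR-144, and 4 were higher and 1 lower with miR-451a. The one that fell was Jak2, a kinase of the IL-12 and IL-23 receptors, from 22.7 ± 1.09 to 10.1 ± 0.494 and 10.7 ± 0.537 FPKM (SD, n = 5 each, limma adjusted p = 3.30e-11 and 6.37e-11). Tyk2, which both IL-10 and IL-12 receptors use, rose by 0.29 and 0.33 on the log2 scale. Outside the naming rule, and named after their values were seen, were Stat3 of the IL-10 receptor (log2 differences of 0.24 and 0.23, at lowest 0.093 and 0.069 under other scalings, where 1 of 4 ended the call with miR-451a), Stat4 of the IL-12 receptor, at 0 to 0.00935 FPKM in control samples and 0.135 to 0.514 in the others, and Jak1 (0.079 and 0.063, called with miR-144). Jak1 turned negative under 2 other scalings, to -0.074 and -0.10, and was called lower under both with miR-451a.

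The 9 genes that IL-10 is known to induce in macrophages did not share a direction. With miR-144, 5 rose, 3 fell and 1 was not called, and with miR-451a 6 rose and 3 fell, and the median log2 difference was 0.42 in both. Socs3, the feedback inhibitor of gp130 receptors that STAT3 induces, rose from 6.35 ± 0.327 to 12.1 ± 1.01 and 12.95 ± 1.38 FPKM (SD, n = 5 each, limma adjusted p = 1.98e-07 and 6.20e-08). Il4ra, a receptor chain of IL-4 and IL-13, rose from 11.9 ± 0.395 to 25.6 ± 3.09 and 26.1 ± 3.29 FPKM (SD, n = 5 each, limma adjusted p = 1.68e-07 and 1.24e-07). Nfil3, a repressor that acts on the Il12b locus in macrophages, fell from 33.0 ± 1.67 to 8.75 ± 0.299 and 8.88 ± 0.717 FPKM (SD, n = 5 each, limma adjusted p = 1.19e-12 and 1.20e-12). The other genes that fell were Etv3 and Zfp36, named after their values were seen, with log2 differences of -0.56 and -0.20 for miR-144 and -0.58 and -0.15 for miR-451a. The call of Zfp36 with miR-451a was lost with TPM (-0.070). Il1rn, also named after its values were seen, was the sixth gene with miR-451a (0.42), and its call held under 1 of 4 other scalings.

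Among 10 regulators of Il10 transcription, 5 rose and 0 fell with miR-144, and 5 rose and 1 fell with miR-451a, the last being Dusp1, named after its values were seen (log2 difference -0.23). Dusp1 was at -0.13 with miR-144, and 3 of 4 other scalings called it lower in both comparisons. On the log2(FPKM + 1) scale the largest difference of the partner genes was that of Maf, a transcription factor that binds the Il10 promoter in macrophages. As a ratio of mean FPKM, Maf was 6.67 and 7.32 times control, which was not the largest ratio among the partner genes (Il27ra was 9.43 and 8.47 times lower). Maf was at 7.24 to 8.49 FPKM in control samples, 43.7 to 59.3 with miR-144 and 48.3 to 64.0 with miR-451a, log2 differences of 2.58 and 2.72 (SE 0.093, limma adjusted p = 2.78e-11 and 1.51e-11). Creb1, a factor downstream of the p38 and MSK kinases, rose by 0.52 and 0.62, with sample ranges that overlapped control. The call of Creb1 with miR-144 (limma adjusted p = 0.0339) was lost under 9 alternatives. They include 3 other scalings and the fits without any of control 3, 4 or 5 or miR-144 1 or 4. The difference was at lowest 0.36 under other scalings and 0.37 without 1 sample. The call of Creb1 with miR-451a was lost under quantile normalization (0.46). Prdm1 rose by 0.38 and 0.31, with calls under 2 of 4 other scalings for miR-144 and 1 of 4 for miR-451a. Both calls were lost with FPKM scaled to equal medians (0.25 and 0.17) and with quantile normalization (0.24 and 0.17), and that with miR-451a also with median centring (0.17). Sp1 was at 0.12 and 0.45 above control and was not called in either comparison.

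Among 11 regulators of Il12b transcription, 5 rose, 2 fell and 4 were not called in each comparison, while Il12b itself stayed listed at 0. Batf3, a factor of dendritic cells that also forms part of AP-1 dimers in macrophages, fell from 7.81 ± 0.514 to 1.01 ± 0.090 and 1.02 ± 0.345 FPKM (SD, n = 5 each, limma adjusted p = 2.63e-10 and 2.32e-10). The part of the dendritic cell markers, whose values are given above, in the difference of Batf3 was not tested. Cebpb fell from 61.5 ± 7.23 to 28.3 ± 4.07 and 27.0 ± 4.26 FPKM (SD, n = 5 each, limma adjusted p = 3.39e-06 and 1.77e-06). Irf8, a factor needed for Il12b induction, was at 16.5 ± 4.60, 27.1 ± 8.70 and 27.2 ± 8.0 FPKM (SD, n = 5 each) with overlapping samples. It was called (limma adjusted p = 0.0259 and 0.0226), but in neither comparison without any of control 1, 3, 4 or 5 or of sample 4 of the miRNA group, where the log2 difference was 0.50 to 0.66, nor with FPKM scaled to equal medians (0.52 for both).

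Of 6 genes that the IL-12 receptor controls in lymphocytes, Ifng, Eomes and Gzmb were listed at 0 in all samples and none had a mean of 1 FPKM. Those called were Il18rap with both miRNAs and Il18r1 with miR-451a, named after their values were seen. Il18r1 averaged 0.0308 FPKM and was called with the opposite sign under 1 other scaling. Il18rap, a chain of the IL-18 receptor, was at 0.118 to 0.222 FPKM in control samples, 0.820 to 1.11 with miR-144 and 0.915 to 1.45 with miR-451a.

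**Figure D4:**
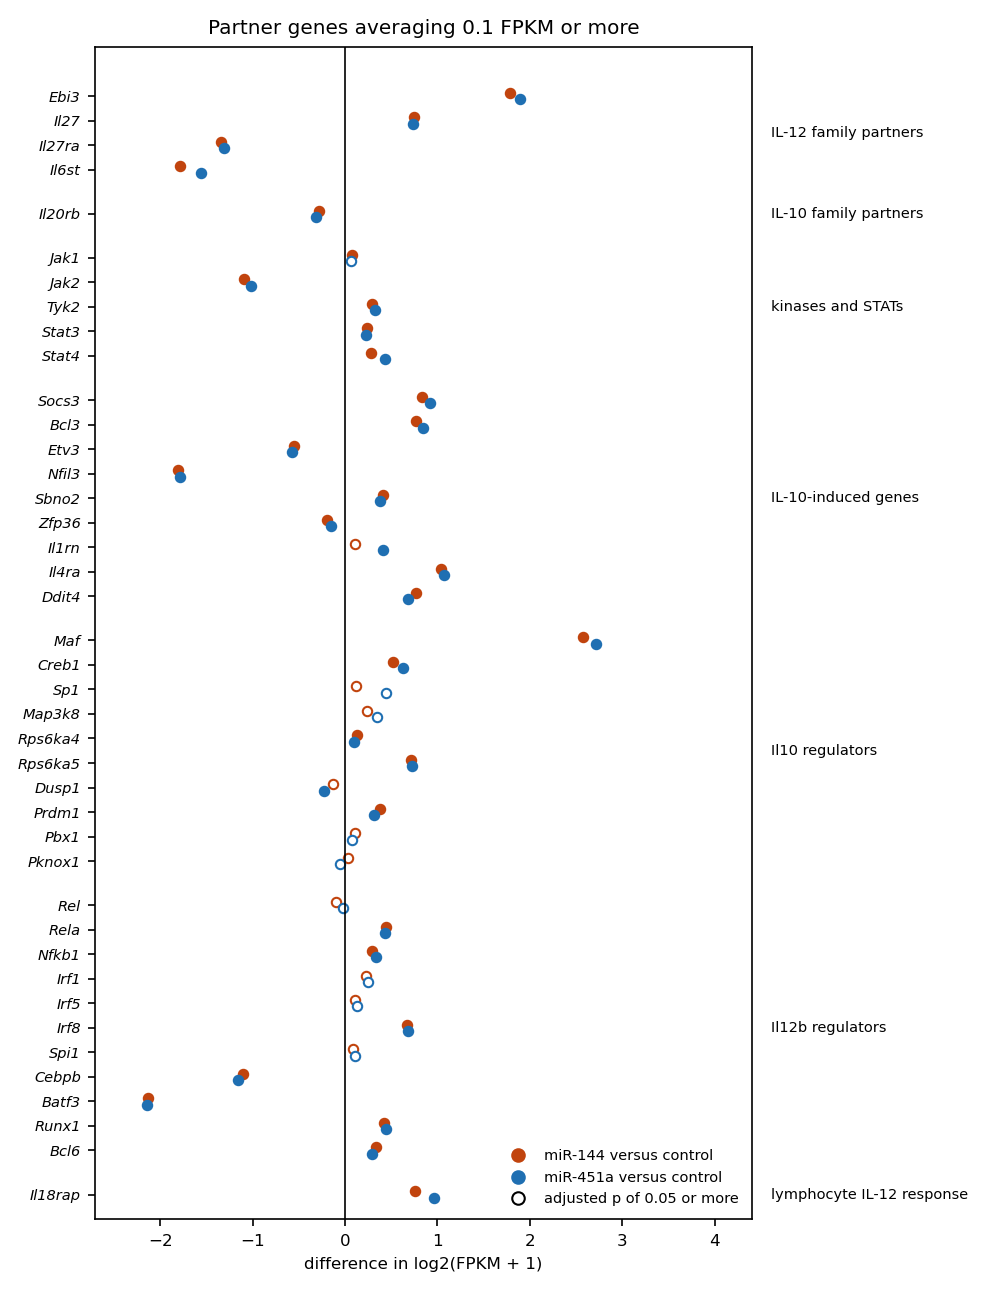
Difference in log2(FPKM + 1) from control for 41 of the partner genes averaging 0.1 FPKM or more, in their lists, with miR-144 in red and miR-451a in blue and open circles where the adjusted p was 0.05 or more. Maf (2.58 and 2.72) and Ebi3 (1.78 and 1.90) lie farthest to the right, Batf3 (-2.13 and -2.14), Nfil3 (-1.80 and -1.79) and Il6st (-1.78 and -1.55) farthest to the left, and both comparisons, which share their control samples, are shown for each gene.

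The genes whose profile over the 15 samples was most like that of a member were sought among 11415 other genes averaging 1 FPKM or more, by the root mean square difference of centred log2(FPKM + 1). For Il10 they were Slc25a37 (0.095), a mitochondrial iron importer, and Pilrb1 (0.10), a paired immunoglobulin-like receptor, against a root mean square of 0.73 for Il10 itself. The likeness is one of differences on this scale and not of folds, as Pilrb1 averaged 0.0358 FPKM in control samples and 1.93 in each miRNA group, and Slc25a37 averaged 3.18, 11.04 and 11.19. For Il10ra they were Dock8 (0.060), an exchange factor of CDC42, and Plekhg3 (0.071), against 0.70. For Il10rb and Il12rb2 the distances were larger in relation to the member's own spread. Tm2d2 (0.261) and Nadk2 (0.275) were the nearest to Il10rb, against its own 0.363, and Zfp992 (0.094) and Bcor (0.095) to Il12rb2, against 0.153.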

How the data were processed

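The authors deposited FPKM per gene for 15 TAM samples sequenced on an Illumina HiSeq. The submitters' processing notes name FastQC 0.11.2, STAR and StringTie. Their settings, the genome build, the annotation and the use of strand are not given in the sources used here. Groups and numbers came from the labels. The members and gene lists were chosen with earlier results of these data known. The named partner genes were those of the IL-12 family, those listed at 0 and the 3 largest differences per list with a mean of at least 1 FPKM. The counts include 1 partner gene that is not reported here.

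Depth is not stated in the sources used here. From the spacing of low values it was estimated at 15.5 to 30.3 M fragments per sample. As 34.4% to 46.7% of those values lay on whole steps, reads could not be recovered and count tests were left out. Floors are 3 fragments at that depth and cover counting error only. No pair of samples was identical. Gene identifiers were matched to GENCODE M21 (GRCm38), which holds 99.67% of them and all 8 members. Its coordinates are 1-based and may differ from those of the authors' build.

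On log2(FPKM + 1), limma 3.58.1 (R 4.3.3, eBayes with a trend) was fitted to all 15 samples in 3 groups, over 29540 genes above 0 in at least 1 sample, with Benjamini-Hochberg adjustment over all of them and a threshold of 0.05. The fit was tested on simulated data. Alternatives were a pseudocount of 0.1, genes averaging 1 FPKM or more, centring on the median, quantiles, TPM, the replicate block, no trend, 2 groups at a time, a log2 difference of at least 1 and each sample left out. Scaling of FPKM to equal medians, and all alternatives for single partner genes, were chosen after seeing the data. Plots were made with matplotlib 3.10.9, and tables with pandas 2.3.3 and numpy 2.4.6 under Python 3.11.15.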

Additional observations from a re-analysis of the deposited data

Results flagged for a closer look

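Within groups of 5 samples, the highest or lowest value of a member was checked by its gap to the nearest other sample as a share of the group's range, with a limit of 0.71. Of 20 combinations of member and group with unequal values, 4 were past it, and chance flags about 1 in 20. Il10ra was highest in control 1 (16.5 FPKM, gap over range 0.748), which is still far below the 39.9 FPKM of the lowest sample of the miRNA groups. Il10rb was lowest in miR-144 sample 3 (35.0 FPKM, 0.715). Il12a in control 3 (0.0437 FPKM) and Il23a in miR-144 sample 4 (0.0199 FPKM) each had a gap over range of 1, as the other 4 samples of the group were listed at 0.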

How the results depend on the processing

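With miR-144 against control, 2 to 4 members were called under the 10 alternatives other than leaving out samples, and 3 without any 1 sample. With miR-451a it was 2 to 4 and 3 to 4, Il12rb2 being called among genes averaging 1 FPKM or more, with TPM, with the replicate block and without control 3, control 4 or miR-144 sample 4 (log2 difference 0.23 to 0.38). Between the miRNA groups 0 were called in all of them. Il10 and Il10ra were called in both comparisons with control under every alternative, with log2 differences of 1.37 to 2.33 and 1.32 to 1.62. The partner genes called numbered 32 and 34, fell to 10 in each comparison when a log2 difference of at least 1 was also asked, by construction, and were otherwise 28 to 36, with 29 to 34 and 31 to 35 without 1 sample. Sp1 with miR-144 changed sign with median centring (-0.011), with FPKM scaled to equal medians (-0.018) and without 1 sample (lowest -0.024, highest 0.32). Median centring moved the split of all calls from 6835 higher and 2851 lower to 4124 and 15991 with miR-144, and from 7229 and 2862 to 4247 and 16387 with miR-451a. Scaling to equal medians gave 4800 and 4066, and 5004 and 4222, and quantile normalization 4526 and 4078, and 4733 and 4217. A log2 difference of at least 1 left 931 and 987 of 9686 and 10091 calls.

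The labels do not say that the numbers 1 to 5 pair the samples, and whether they do is not settled. Of 15 same-number correlations of deviations from the group means, 8 were over 0.1 (range -0.15 to 0.264), not every one as pairing was taken to require, against 14 of 60 between different numbers. In 12 of 30 combinations of a sample and another group the best match was its own number, a hint from the data and not from the design. With the replicate block, 3 and 4 members and 33 and 34 partner genes were called against control (Il12rb2 being the fourth member, with miR-451a), and 0 members between the miRNA groups. The ratio of Il10 to Il12b was not run with another pseudocount. With 0.01 in place of 0.1 FPKM, the mean log2 ratio of Il12rb2 to Il12rb1 was 3.46, 2.6 and 2.56 in control, miR-144 and miR-451a samples, and the control and miR-451a ranges no longer overlapped. Depth limits Il12a, Il12b, Il23a and Il12rb1, all with few or no fragments.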
